A study of Mus musculus with 2 samples.

Results

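Tuft cells are rare chemosensory cells of the intestinal epithelium, and the genes described here are those that mark them or that carry the taste-type signal they share with taste buds. The set is a list of 41 genes chosen by name, with earlier results of these data known. It holds receptors, the taste cascade from G protein to cation channel, transcription factors, cytoskeletal proteins, and signalling proteins that tuft cells share with leukocytes. Each gene was represented by the probe set annotated to it alone, and by the one with the highest mean where there were several. This found 36 of the 41 genes, among 18194 genes on the array. Ffar3, Gnat3, Sh2d7 and Trim38 had no probe set under their symbols in the annotation table, and the only probe set listed for Kctd12 carries a second symbol, so these 5 genes were not analysed here.

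Small intestines were taken from mice with an IL-9 transgene and from wild-type controls, all untreated, 6 to 8 weeks old and on the BALB/c background. Each group was 1 pool of 3 mice on 1 Affymetrix mouse array. IL-9 is a cytokine of type 2 immunity, and the labels do not give the promoter that drives the transgene or the cells that express it. With 1 array per group the spread between mice is unknown, so no difference has a replicate check and no p-value is given. Il9 itself read 62.2 in the transgenic and 71.6 in the wild-type pool, so the direction of every difference rests on the labels. In whole tissue, more cells of a type and more RNA per cell cannot be told apart.

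In tuft cells a ligand binds a receptor at the cell surface, a G protein of the taste type is released, phospholipase C beta forms inositol trisphosphate, calcium leaves its stores and the channel Trpm5 opens. The lineage depends on the transcription factor Pou2f3. In the small intestine these cells are known for releasing IL-25 when helminths or protists are present, and the IL-13 that follows acts on epithelial progenitors and enlarges the tuft cell and goblet cell populations.

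Promoter sequences are shown for 4 members, each for the 250 bases before the annotated start of the gene. Sucnr1 is the measured member with the octamer of POU factors, the family of Pou2f3, in that window. Trpm5 is the channel of the taste cascade, and Rgs13 and Bmx are among the members with the largest differences between the pools. The sequences are from RefSeq on build GRCm38.p6, read 5′ to 3′ on the strand of the gene. The Sucnr1 window is chr3:60081619-60081868 on the plus strand, that of Trpm5 chr7:143094643-143094892, that of Rgs13 chr1:144177373-144177622 and that of Bmx chrX:164258194-164258443, these 3 on the minus strand. Capitals mark matches on either strand to the octamer ATGCAAAT, to the hexamer TGTGGT of Runt factors such as Runx1, or to AAATCA, a core bound by Gfi1 and Gfi1b.
Sucnr1: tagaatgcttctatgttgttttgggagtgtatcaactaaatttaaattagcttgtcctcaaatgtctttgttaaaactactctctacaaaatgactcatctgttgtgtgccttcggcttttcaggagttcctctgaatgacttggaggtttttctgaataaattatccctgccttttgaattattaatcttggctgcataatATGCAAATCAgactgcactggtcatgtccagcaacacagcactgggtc
Trpm5: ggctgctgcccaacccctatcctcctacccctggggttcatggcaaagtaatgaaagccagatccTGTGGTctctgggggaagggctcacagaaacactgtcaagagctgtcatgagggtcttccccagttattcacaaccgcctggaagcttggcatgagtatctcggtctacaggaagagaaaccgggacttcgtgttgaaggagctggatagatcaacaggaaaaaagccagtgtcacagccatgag
Rgs13: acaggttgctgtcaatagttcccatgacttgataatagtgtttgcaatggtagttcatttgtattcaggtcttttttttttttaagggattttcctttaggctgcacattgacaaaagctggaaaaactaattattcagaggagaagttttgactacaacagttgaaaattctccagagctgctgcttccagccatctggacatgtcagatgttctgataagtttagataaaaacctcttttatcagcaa
Bmx: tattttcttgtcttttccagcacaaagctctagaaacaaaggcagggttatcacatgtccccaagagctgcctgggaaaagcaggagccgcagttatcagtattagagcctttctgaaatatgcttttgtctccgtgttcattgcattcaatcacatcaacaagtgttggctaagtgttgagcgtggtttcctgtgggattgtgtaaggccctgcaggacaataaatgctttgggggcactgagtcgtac

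Windows were found for 35 of the 41 members, 43 in all since some genes have several starts. Of these, 24 precede the annotated start of the gene, and 19 precede a later transcript start and so lie partly or wholly inside the gene. The octamer was in 3 of the 43 windows, 6.98%, against 1.60% of all 32851 windows, and the 3 belong to Sucnr1, Kctd12 and Itpr3. In Sucnr1 it begins 48 bases before the start and shares bases with the AAATCA match. The Itpr3 window precedes a start 302 bases inside the gene. The Runt hexamer was in 7 of the 43 windows, 16.3%, against 14.0% of all windows, and AAATCA in 9, 20.9% against 12.4%. Rgs13 and Bmx had none of the 3. A match of letters describes the window only.

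Part of the tuft cell set was higher in the transgenic pool, led by the tuft cell genes Rgs13, Avil, Strip2, Dclk1, Bmx and Sh2d6. Differences are the transgenic minus the wild-type pool on the scale of log2(intensity + 1), which understates the change of dim genes. Folds are taken from the same scale, so in dim genes they are smaller than the ratio of the readings, 4.27 against 4.58 in Strip2. Of the 36 members, 8 were higher by 2-fold, 22.2%, against 0.412% of all genes. Of 2 taste receptor subunits and 6 members of the taste cascade 0 passed 2-fold, which is near the share of all genes. The cascade had 5 of 6 above 0 and a median of 0.20, led by Trpm5 at 0.83. The members were chosen with earlier results of these data known, so the shares in this paragraph describe the set and are no independent check. None was lower by 2-fold, against 0.132% of all genes. A total of 29 members lay above 0, 5 lay below and 2 had the same value in both pools, while 51.3% of all genes lay above 0. The median difference was 0.32 in the members and 0.01 in all genes. The range from -0.45 to 0.46 held 95% of all genes. Above it lay 14 members, against 2.5% of all genes, and 0 members lay below it.

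**Figure D1:**
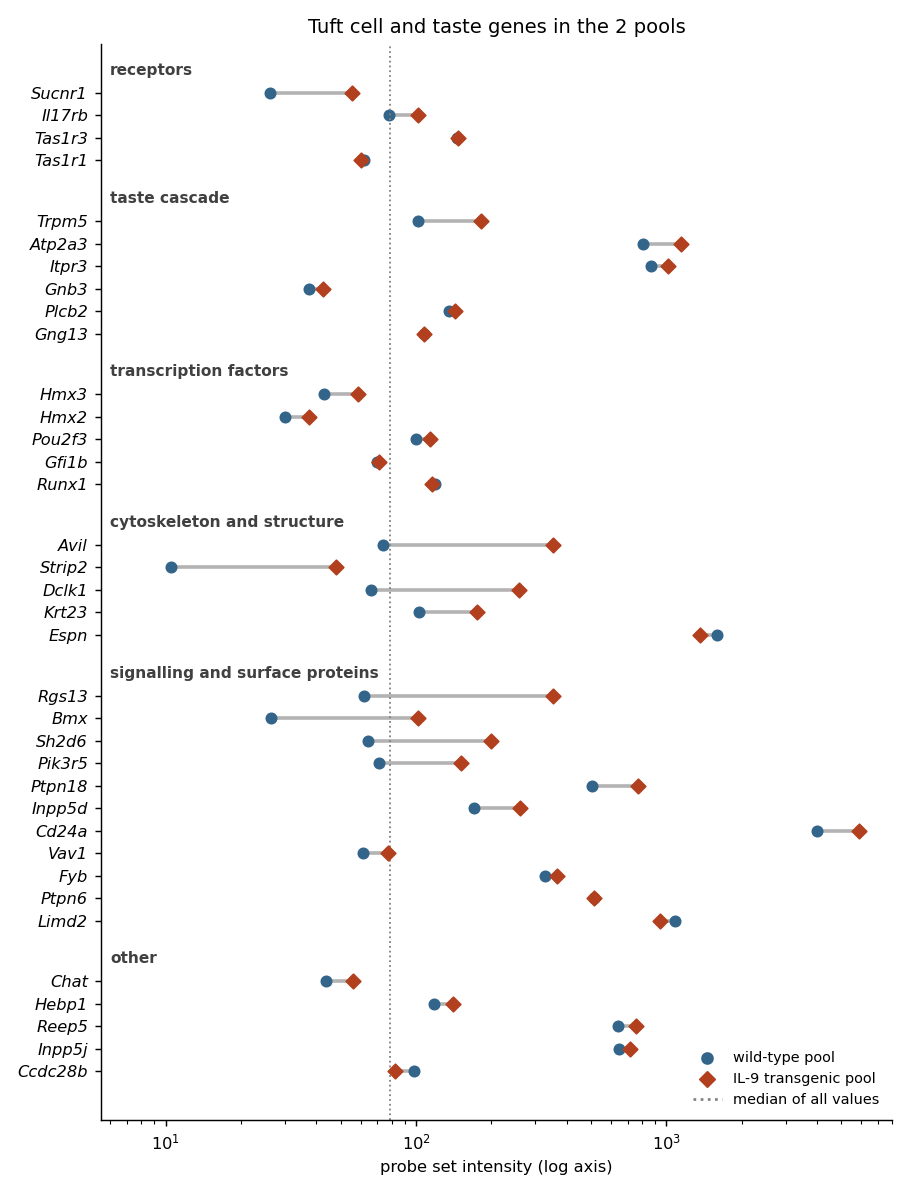
Intensity of each of the 36 measured members in the wild-type pool (circles) and in the IL-9 transgenic pool (diamonds), 1 array each, on a log axis, grouped by role; the dotted line is the median of all values, an intensity of 78.5. The 8 genes past 2-fold all start left of the line in the wild-type pool, from 10.5 in Strip2 to 73.9 in Avil, and Tas1r1, Tas1r3, Gng13 and Ptpn6 have nearly coincident points.

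The 8 members past 2-fold were dim in the wild-type pool. All 8 read below the median of all values, 78.5, in that pool, and 6 of the 8 read above it in the transgenic pool. Of 20 members at or above the median in the wild-type pool 0 were higher by 2-fold, against 0.432% of all such genes, 14 lay above 0 and the median difference was 0.17. Of 16 members below the median in the wild-type pool 8 were higher by 2-fold, against 0.378% of all such genes, and the median was 0.75. A split on the wild-type reading uses 1 of the 2 values behind the difference, so these counts are a description of where the differences lie. Of 10 members with a mean past the 75th percentile 0 were higher by 2-fold, against 35 of all 6819 such genes, so the count is near that share. Of the 10, 7 lay above 0 and the median was 0.19.

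**Figure D2:**
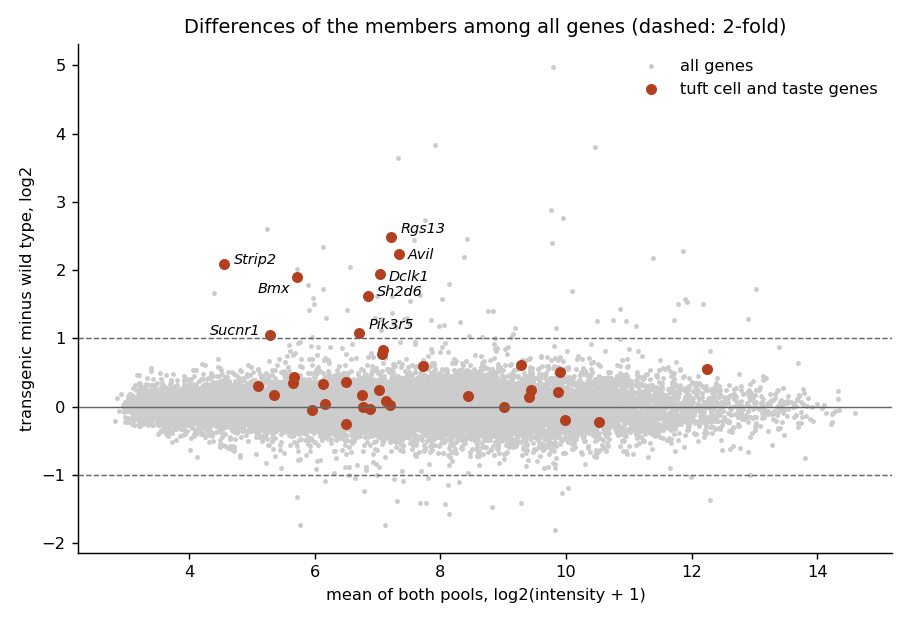
Difference between the pools against the mean of both pools, both on the log2(intensity + 1) scale, for all 18194 genes (grey) and the 36 members (red); dashed lines mark 2-fold. The named members lie above 1 at low to middle levels, with Rgs13 highest at 2.49, and no member lies below -1.

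Genes measured by more than 1 probe set give the only repeat reading in this design. Over 9012 such genes the SD of the difference between probe sets of 1 gene was 0.22, which describes the arrays and not the mice. By that yardstick 22 members lay above by at least 1 SD, 12 lay within it and 2, Espn and Ccdc28b, lay below by at least 1 SD. Many genes outside the set also pass 1 SD. Itpr3, just past it at 0.22, ranked 2558 of 18194 genes from the highest, so at least 2558 genes lay above by 1 SD. Espn, at -0.23, ranked 16001, and the genes ranked after it lay at its level or lower. Of the 68 probe sets of the members, 57 lay above 0, 8 below and 3 had the same value in both pools, while 51.9% of all probe sets with 1 symbol lay above 0. A total of 12 of the 68 were higher by 2-fold, against 0.306% of all such probe sets.

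Among the receptors, the succinate receptor differed most and the taste receptors least. Sucnr1, the receptor for succinate that tuft cells use to sense microbial metabolism, read 55.3 in transgenic tissue and 26.1 in wild-type tissue, 2.08-fold higher. Both readings were below the median of all values, and the difference was 0.76 with a pseudocount of 16 and 0.41 with one of 64. Il17rb, the subunit of the IL-25 receptor, read 101 against 78.2, a difference of 0.37. Tas1r3, the subunit common to the sweet and umami receptors, read 148 against 145, and Tas1r1, its umami partner, read 60.1 against 61.8. These 2 taste receptor subunits differed by 0.02 and -0.04, well under the SD between probe sets.

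In the taste cascade the channel at its end and the calcium pump differed most. Trpm5, the cation channel that depolarises the cell, read 181 in transgenic tissue and 102 in wild-type tissue, 1.78-fold higher. Its other 2 probe sets read 122 against 68.0 and 95.6 against 50.1, so that all 3 lay between 0.83 and 0.92. This was the closest agreement between probe sets among the members that had at least 3. Atp2a3, the calcium pump SERCA3 that refills the stores, read 1145 against 807 on its brighter probe set and 303 against 168 on the other, differences of 0.50 and 0.85.

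The G protein subunits, the phospholipase and the calcium release channel differed by 0.22 or less on the probe set used. Itpr3, the inositol trisphosphate receptor that releases calcium, read 1015 against 869, a difference of 0.22, just past the SD between probe sets before rounding. Plcb2, the phospholipase of the cascade, read 143 against 135, a difference of 0.08. Gnb3, the G protein beta subunit of taste cells, read 42.4 against 37.5, a difference of 0.17. Gng13, the gamma subunit, had the same value of 108 in both pools on its brighter probe set and 44.9 against 36.6 on the other, so no direction is given. Of 6 members of the cascade 0 passed 2-fold, near the 0.412% of all genes that were higher by 2-fold, and the median was 0.20.

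The identical Gng13 values are not peculiar to that gene. In the deposited values 1171 of 45101 probe sets, 2.60%, hold the same value on both arrays. They include 1 of the 2 probe sets of Ptpn6 and 1 of the 4 of Limd2. Ptpn6 and Gng13 are the 2 members whose difference is 0 for this reason.

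No transcription factor in the set reached 2-fold. Pou2f3, which specifies tuft cells, read 113 in transgenic tissue and 100.2 in wild-type tissue, a difference of 0.17. Gfi1b, a repressor expressed in mature tuft cells, read 71.4 against 69.5, a difference of 0.04. Hmx3 and Hmx2, neighbouring homeobox genes, read 58.6 against 43.0 and 37.2 against 29.9, differences of 0.44 and 0.31, at levels below the median in both pools. Both differences exceed the SD of 0.22 between probe sets but lay inside the range, up to 0.46, that held 95% of all genes. Runx1, a Runt factor of blood cells and epithelia, lay at -0.03 on its brightest probe set (116 against 119) and between 0.10 and 0.46 on the other 5. The direction of Runx1 therefore depends on the probe set. The median of the 5 factors was 0.17.

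Cytoskeletal and structural members held 3 of the 8 genes past 2-fold. Avil, the actin-binding protein advillin, read 353 in transgenic tissue and 73.9 in wild-type tissue, 4.73-fold higher, at rank 15 of all genes. Strip2, a striatin-interacting protein, read 47.9 against 10.5, 4.27-fold higher at rank 18. Both of its values were below the median, its wild-type reading was near the floor of the array (5.75 was the lowest of all), and the difference was 0.59 with a pseudocount of 64.

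Dclk1, the microtubule-associated kinase most used to stain tuft cells, had 9 probe sets. The brightest read 257 against 65.9, 3.86-fold higher at rank 21. The other 8 lay between 0.24 and 1.23, 3 of them past 2-fold, at readings from 11.4 to 101 in the transgenic pool. All 9 lay above 0, but the mean over them was 0.81 and the median 0.68, so whether Dclk1 passes 2-fold depends on the probe set taken. Krt23, a keratin, read 175 against 103, 1.70-fold higher. Espn, the actin-bundling protein espin of microvilli, read 1359 against 1593, a difference of -0.23, and was the only member of this role below 0.

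**Figure D3:**
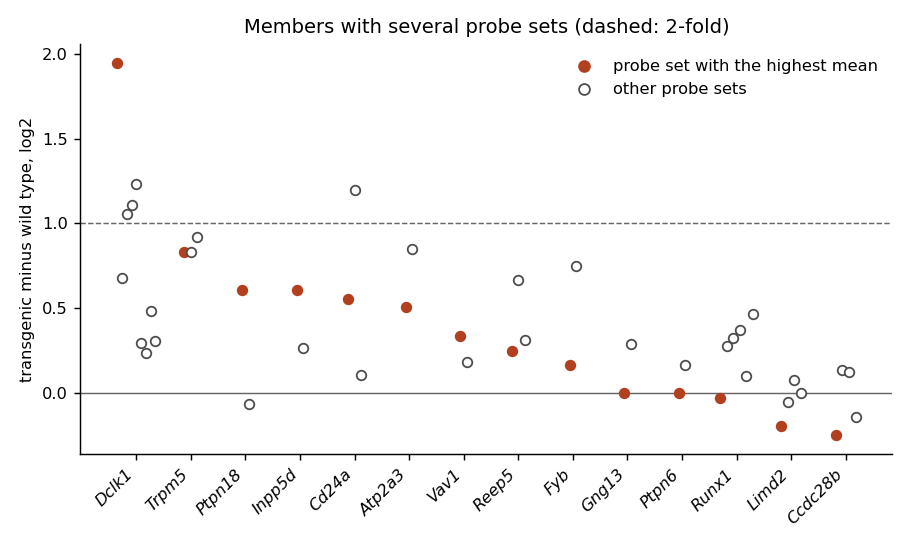
Difference between the pools for every probe set of the 14 members that have several, on the log2(intensity + 1) scale; filled points are the probe set used for the gene, open points the others, and the dashed line marks 2-fold. All 9 of Dclk1 and all 3 of Trpm5 lie above 0, Cd24a spans 0.11 to 1.20, and Runx1, Ptpn18, Limd2 and Ccdc28b straddle 0.

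Signalling proteins held 4 of the 8 genes past 2-fold. Rgs13, a regulator of G protein signalling, read 352 in transgenic tissue and 61.7 in wild-type tissue, 5.63-fold higher, at rank 9 of all genes. Bmx, a kinase of the Tec family, read 102 against 26.3, 3.75-fold higher at rank 22, and Sh2d6, an adaptor with an SH2 domain, read 200.1 against 64.5, 3.07-fold higher at rank 32. Pik3r5, the regulatory subunit of phosphoinositide 3-kinase gamma, read 151 against 71.0, 2.12-fold higher. Each of these 4 was measured by 1 probe set, as were Avil, Strip2 and Sucnr1, so 7 of the 8 genes past 2-fold have no second probe set to set beside them. With a pseudocount of 64 Rgs13, Avil, Dclk1 and Sh2d6 were past 2-fold and the other 4 were not, Bmx at 0.87 and Pik3r5 at 0.67.

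Rgs13, Bmx and Pik3r5 are also expressed by leukocytes, so at least 3 of the 8 members past 2-fold are shared with them. The other signalling and surface proteins were all under 2-fold. Ptpn18, a tyrosine phosphatase, read 769 against 505 on the brighter probe set, a difference of 0.61, and -0.07 on the dim one. Inpp5d, the lipid phosphatase SHIP1, read 260 against 171, a difference of 0.60, with 0.26 on its second probe set. Cd24a, a glycoprotein of immature and secretory epithelium and of leukocytes, read 5855 against 3993, a difference of 0.55, while its other probe sets lay at 1.20 and 0.11. Fyb, a T cell and platelet adaptor, lay at 0.16 on the probe set used (366 against 327) and at 0.75 on the other (304 against 180.2).

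Vav1, an exchange factor of blood cells, read 77.6 against 61.4, a difference of 0.33. Ptpn6, the phosphatase SHP-1, had the same value of 516 in both pools on the probe set used and 483 against 430 on the other, a difference of 0.17. Limd2, a LIM domain protein, read 942 against 1083, a difference of -0.20, and its other probe sets lay between -0.05 and 0.07.

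The 5 remaining measured members differed by between -0.25 and 0.35. Chat, the enzyme that makes acetylcholine in tuft cells and neurons, read 55.8 against 43.6, a difference of 0.35 below the median level. Hebp1, a heme-binding protein, read 141 against 118, and Reep5, which shapes the endoplasmic reticulum, read 759 against 639, both at 0.25. The other 2 probe sets of Reep5 lay at 0.67 and 0.31. Inpp5j, an inositol phosphatase, read 714 against 645, a difference of 0.15. Ccdc28b, a coiled-coil protein, lay at -0.25 (82.2 against 98.1), with 2 of its 4 probe sets above 0, so no direction is given.

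The readings were set against 10 genes used as tuft cell markers, of which 9 were measured: Dclk1, Trpm5, Gfi1b, Pou2f3, Sucnr1, Avil, Rgs13, Sh2d6 and Il17rb. All 9 lay above 0 and 5 were higher by 2-fold, against 51.3% and 0.412% of all genes. These 9 are among the 36 members, so their counts are no second check. Gfi1b, Il17rb and Rgs13 are also listed as shared with leukocytes, and Rgs13 is among the 5. The 9 are therefore not all specific to tuft cells. Gfi1b and Pou2f3 differed by less than the SD of 0.22 between probe sets. In the wild-type pool 2 of the 9, Trpm5 and Pou2f3, read at or above the median of all values, 78.5, against 11582 of 18194 genes. In the transgenic pool 7 of the 9 did, but Il17rb at 78.2 and Avil at 73.9 were only just under that line in the wild-type pool. The intensities carry no detection calls, so markers below the median are not called absent.

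Tuft cell genes outside the 41 were higher in part. A list of 35 further genes reported in tuft cells, chosen with earlier results of these data known, had 32 on the array. Of these, 8 were higher by 2-fold, 25%, against 0.412% of all genes, and 0 were lower. Above 0 lay 24, 75%, against 51.3% of all genes, and the median was 0.26. Because of how it was chosen, the list is no independent check of the members. Siglecf, a lectin of intestinal tuft cells and eosinophils, was highest at 5.07-fold (156 against 30.0). Alox5ap and Alox5, which make leukotrienes, were 3.49-fold and 2.42-fold higher, while Ltc4s, the last step toward cysteinyl leukotrienes, differed by 0.45 and Hpgds, a prostaglandin D synthase, by 0.20. Ccnj, a cyclin, was 2.68-fold higher, Pygl, the glycogen phosphorylase, 2.47-fold, Matk, a kinase, 2.45-fold, Cd300lf, a receptor of tuft and myeloid cells, 2.43-fold, and Lrmp, a membrane protein of the endoplasmic reticulum, 2.35-fold. Spib, a transcription factor of tuft cells, M cells and B cells, differed by 0.69. The 8 genes below 0 were led by Homer2, a scaffold protein, at -0.45, Nrep at -0.21, Mctp1 and Chn2 at -0.18 each and Adh1, an alcohol dehydrogenase, at -0.12. Il25, the cytokine by which tuft cells signal, read 26.7 against 24.3, both far below the median.

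Among 27 further genes of the taste cascade and nutrient receptors, 18 were on the array and 0 were past 2-fold. Of all genes 0.412% were higher and 0.132% lower by 2-fold. The 18 had a median of 0.05, with 10 above 0 and 8 below. The highest were Gnat2 at 0.42 (57.1 against 42.4) and Plcb1 at 0.25, with all 5 of its probe sets above 0. Tas1r2, the sweet receptor subunit, differed by 0.12, the bitter receptors Tas2r105 and Tas2r108 by 0.10 and 0.06, and Ffar2, a receptor for short-chain fatty acids, by 0.23. Plcb3, a relative of the phospholipase of the cascade, differed by -0.13. Itpr2, a relative of its calcium release channel, lay at -0.43 on the probe set used, but its 6 probe sets ran up to 0.39 with 3 above 0, so no direction is given. Trpm4, the channel most related to Trpm5, read 1401 against 1404. Its difference of -0.0037 lay far below the 0.83 of Trpm5, although whether the 2 genes differ was not tested.

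**Figure D4:**
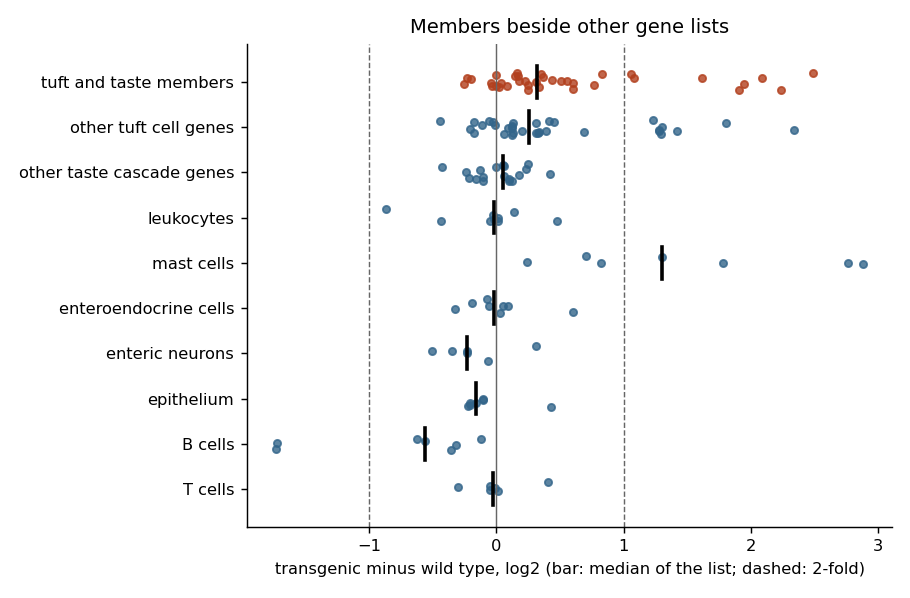
Difference between the pools for each gene of the members (red) and of 9 comparison lists (blue), on the log2(intensity + 1) scale; black bars are list medians and dashed lines mark 2-fold. The mast cell list, with a median of 1.30, lies further right than the members, and the leukocyte and T cell lists centre near 0.

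Several members are also expressed by leukocytes, so markers of other cells are given beside them. Of 9 pan-leukocyte markers 0 passed 2-fold, the median was -0.02, and their summed intensity was 6834 in the transgenic and 7327 in the wild-type pool. The largest differences were -0.87 in Laptm5 and 0.48 in Rac2. T cell markers had a median of -0.03 over 6 genes, with summed intensities of 1180 and 1152, and the largest differences were 0.40 in Cd8a and -0.30 in Cd2. B cell markers had a median of -0.57 over 7, with sums of 649 and 1087, and Ms4a1 and Cr2 were lower by 2-fold, both at -1.73. Epithelial markers had a median of -0.16 over 7, with sums of 56740 and 62844, and the largest differences were 0.43 in Krt18 and -0.23 in Cdh1. Of the 15 measured members listed as shared with leukocytes, 3 were higher by 2-fold, and the median was 0.37. Without them, 21 members were left, of which 5 were higher by 2-fold and 17 lay above 0, with a median of 0.25. The list of shared members may be incomplete, so these 21 are not known to be free of leukocyte signal.

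Mast cell markers moved with the tuft cell genes. All 7 of 7 lay above 0, 4 of them past 2-fold, with a median of 1.30 and a summed intensity of 5741 in the transgenic pool against 1148 in the wild-type pool. Mcpt2 and Mcpt1, chymases of mucosal mast cells, differed by 2.89 and 2.77, Fcer1a by 1.79 and Cpa3 by 1.30. No marker was at 0 in either pool, and the dimmest reading was 31.0 for Fcer1a in the wild-type pool. Rgs13, Inpp5d, Vav1, Alox5ap and Alox5 are known in mast cells as well as in tuft cells. The part of mast cells in the differences of the members was not tested. Enteroendocrine markers had a median of -0.02 over 8 genes, with sums of 2901 and 2853, the largest differences being 0.61 in Tph1 and -0.33 in Scg2. Markers of enteric neurons, which also express Chat, had a median of -0.23 over 6, with sums of 458 and 531, the largest differences being -0.51 in Snap25 and -0.35 in Uchl1.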

How the data were processed

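Per the labels, total RNA of each pool was amplified, labelled with biotin and hybridised to 1 array. The deposited values are probe set intensities on a linear scale, from 5.60 to 24147 in the transgenic pool and from 5.75 to 25799 in the wild-type pool, with medians of 78.7 and 78.3. The submitters' processing notes name RMA (no version). This method equalises the distributions of arrays, so a shift shared by most genes would not show. No build or chip annotation of the authors is stated in the labels.

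Gene names came from a platform annotation table, in which 34958 of 45101 probe sets carry 1 symbol, 932 carry several and 9211 none. All 41 member symbols are in the RefSeq table of GRCm38.p6. A gene was counted as higher or lower at 2-fold, a difference of 1 in log2(intensity + 1), with no filter on level. All members could be named. Of the comparison lists, the genes named are up to 4 past 2-fold or the 2 largest differences, and any gene of the further tuft cell and taste lists. Members and lists were chosen with earlier results of these data known. The spread between mice is unknown, so no test was run. The alternatives were 2 scalings, other pseudocounts, filters and sizes of difference, and other choices of probe set. The computation was tested on simulated data. Python 3.11.15, pandas 2.3.3 and matplotlib 3.10.9 were used.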

Additional observations from a re-analysis of the deposited data

Results flagged for a closer look

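The only probe set listed for Kctd12 also carries the symbol of a microRNA gene, Mir5130, and so stood outside the comparison. Its intensity was 623 in transgenic tissue and 309.7 in wild-type tissue, a difference of 1.01 on the log2(intensity + 1) scale, above the level in the wild-type pool. The signal cannot be given to either gene.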

How the results depend on the processing

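No paired analysis was possible because each group is 1 array. The members past 2-fold numbered 8, and 6 to 8 under quantile normalization, median centring, a pseudocount of 16, every other choice of probe set and a 3-fold threshold. With a filter on the higher value at the median they numbered 6 of 27 tested. All 6 passed that filter only through the transgenic pool, so this count is no check. At 1.5-fold they numbered 12. They numbered 4 with a pseudocount of 64, 5 with a filter on the mean at the median (26 members tested, the 5 passing through the transgenic pool) and 0 with a filter on the mean at the 75th percentile (10 tested, of which 7 lay above 0). Over all genes 99 passed 2-fold in either direction, 55 with a pseudocount of 64, 46 after filtering at the 75th percentile, 417 at 1.5-fold and 36 at 3-fold. Larger pseudocounts shrink dim genes and the filters test fewer genes by construction. The median of the members ran from 0.19 to 0.34 over all alternatives. Rgs13, Avil, Dclk1 and Sh2d6 were past 2-fold under both scalings and both pseudocounts. Of the 8, Dclk1 alone has several probe sets, and it was at 0.81 as their mean, 0.68 at their median difference and 0.30 on the dimmest. Leaving out probe sets of equal value on both arrays, an alternative chosen after seeing the data, gave 8 past 2-fold and 31 above 0. In the further tuft cell list the genes past 2-fold fell to 5 with the filter on the mean at the median, 2 with a pseudocount of 64 and 1 at the 75th percentile, from 8. Sucnr1 and Strip2 read below the median of all values in both pools, and their differences were 0.41 and 0.59 with a pseudocount of 64. The part of background signal or noise in these readings was not tested.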
